A study of Homo sapiens with 6 samples.

Results

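The 10 fibroblast growth factor (FGF) genes described here are the secreted ligands FGF20, FGF9, FGF19 and FGF2, the carrier gene FGFBP1, and the receptors FGFR1, FGFR2, FGFR3, FGFR4 and FGFRL1. They are 10 of 60483 genes counted by RNA sequencing in DLD-1 cells, an established human colorectal cancer line, and were found in the count tables through their Ensembl gene IDs. The genes were chosen on values from these same libraries, with their differences known, so their differences are given as a description with no test. Cells were transfected with AHR siRNA (3 libraries) or with control siRNA (3 libraries), and both were kept in the same serum-supplemented medium with no other treatment named. The product of AHR is the aryl hydrocarbon receptor, which binds a ligand and then, with its partner ARNT, DNA, and the comparison asks which genes depend on it in colorectal cancer cells. Neither the siRNA sequence nor the time after transfection is stated. Whether replicates of a group came from separate cultures is not stated either, and the library-to-library spread behind each p-value could then be a technical one.

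FGF ligands act by bringing together receptor tyrosine kinases and heparan sulfate chains on the cell surface. The active receptors phosphorylate the docking protein FRS2, which passes the signal through RAS to a relay of kinases, and Sprouty proteins and DUSP6 are induced as brakes on that relay. FGFR1 to FGFR4 carry the kinase, whereas FGFRL1 binds ligand and lacks it, and FGFBP1 releases FGF2 from the extracellular matrix. FGF9 and FGF20 belong to one ligand subfamily, and FGF19 is a hormone that the ileum releases in response to bile acids.

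Library totals were 11567736 to 12937058 counts with AHR siRNA and 13585529 to 15037145 counts with control siRNA. Levels are given in CPM, counts scaled to a common library size with TMM factors, which correct library totals for differences in composition. AHR itself stood at 95.8, 87.4 and 94.95 CPM in AHR siRNA libraries and at 117, 144 and 132 CPM in control siRNA libraries. The groups did not overlap, and AHR fell to 70.9% of the control mean (edgeR adjusted p = 1.98e-05), a partial loss of its RNA. The epithelial marker KRT8 was abundant and fell, at 3902 ± 91 CPM in AHR siRNA and 6359 ± 485 CPM in control siRNA libraries (SD, n = 3 each). The 10 epithelial markers summed to 8094 to 8416 CPM in AHR siRNA libraries and 11700 to 13210 CPM in control siRNA libraries, with 1 of the 9 fitted called higher and 5 lower, or 3 lower when library totals alone set the scale. The one that rose was VIL1, at 33.5 ± 1.6 CPM in AHR siRNA and 7.47 ± 1.4 CPM in control siRNA libraries (SD, n = 3 each). KRT8 and KRT18, the most abundant of them, weighed most in the epithelial sum. KRT18 stood at 1756 ± 66 CPM in AHR siRNA and 2829 ± 271 CPM in control siRNA libraries (SD, n = 3 each). KRT19, CDH17 and LGALS4 were not called. The 10 fibroblast markers summed to 2.13 to 3.31 CPM in AHR siRNA libraries and 2.31 to 3.38 CPM in control siRNA libraries, with DCN, LUM, PDGFRA and THY1 at 0 in every library, PDGFRB higher (log2 fold change 1.74, edgeR adjusted p = 0.000566) and COL1A1 lower (-0.82, edgeR adjusted p = 0.0324). The 8 endothelial markers summed to 7.21 to 8.15 CPM in AHR siRNA libraries and 6.46 to 8.33 CPM in control siRNA libraries, with KDR at 0 and VWF higher (log2 fold change 0.85, edgeR adjusted p = 0.0122). The 8 leukocyte markers summed to 2.15 to 2.79 CPM in AHR siRNA libraries and 3.31 to 4.73 CPM in control siRNA libraries, with MS4A1 among those at 0 and CD14 lower (log2 fold change -0.75, edgeR adjusted p = 0.0126). The call of COL1A1 was lost without control siRNA replicate 1 or 2 or AHR siRNA replicate 3, that of VWF without control siRNA replicate 3, and that of CD14 without replicate 2 of either group, with edgeR adjusted p values from 0.0558 to 0.201. The part of these marker levels in the results below was not tested.

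Of the 10 FGF genes, 8 had enough counts to be fitted and FGF9 and FGF19 did not. At an adjusted p under 0.05 over all genes, 2 of the 8 were called higher and 5 lower in AHR siRNA cells. Of all 14900 fitted genes 60.1% were called, 30.0% as higher and 30.1% as lower. The libraries of both groups stood apart, with no overlap in CPM, for 7 of the 8 FGF genes and for 63.7% of all fitted genes. Since the FGF genes were chosen on this comparison, nothing is read from these counts. Scaling by library totals alone shifted the median log2 fold change of all genes by 0.15 and turned the split of all calls to 5885 higher and 3205 lower, against 4474 higher and 4479 lower with TMM. No fitted FGF gene changed direction under it. Control siRNA replicate 1 stood further from its group than the others, and leaving it out gave log2 fold changes of 2.66 for FGF20, -0.90 for FGF2, -1.40 for FGFBP1, -0.43 for FGFR1, -0.64 for FGFR2, -1.56 for FGFR3, 0.20 for FGFR4 and 0.41 for FGFRL1.

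**Figure D1:**
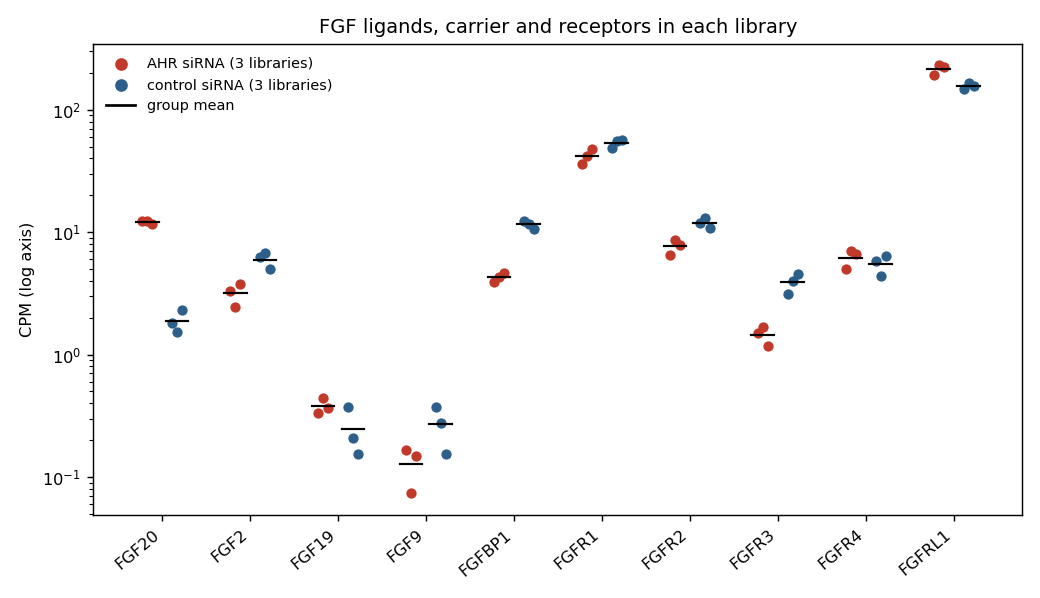
Level of each of the 10 genes in CPM on a log axis, with 1 point per library, AHR siRNA left of control siRNA and a bar at each group's mean. FGF20 stands far higher in all 3 AHR siRNA libraries (mean 12.1 CPM) than in control siRNA libraries (mean 1.88 CPM), while FGFR4, FGF19 and FGF9 overlap.

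FGF20 showed the widest separation of the ligands. FGF20 (ENSG00000078579.8) had 149, 167 and 160 counts in AHR siRNA libraries and 24, 22 and 30 counts in control siRNA libraries. In CPM these were 12.3, 12.3 and 11.8 with AHR siRNA, against 1.80, 1.52 and 2.31 with control siRNA. Every AHR siRNA library was above every control siRNA library, and the AHR siRNA libraries lay close together. The means were 12.1 ± 0.33 CPM in AHR siRNA and 1.88 ± 0.40 CPM in control siRNA libraries (SD, n = 3 each). The fitted log2 fold change, AHR siRNA over control siRNA, was 2.69 (SE 0.17, the standard error), which ranked 46 of 14900 from the largest rise.

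FGF2, a broadly acting ligand that leaves cells without a classical signal peptide, was lower with AHR siRNA. It had 3.31, 2.43 and 3.75 CPM in AHR siRNA libraries and 6.23, 6.69 and 5.000 CPM in control siRNA libraries. All AHR siRNA libraries were below the control siRNA libraries, and the log2 fold change was -0.92 (SE 0.20). FGF2 shares 637 bases of exon with NUDT6, which lies on the opposite strand and is antisense to it. NUDT6 had 41, 37 and 49 counts in AHR siRNA and 63, 83 and 49 counts in control siRNA libraries, and fell by 0.56 on the log2 scale (SE 0.20, edgeR adjusted p = 0.0243). No source used here states whether counting used the strand, so reads of FGF2 and NUDT6 within those shared bases may not be told apart.

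FGF19 and FGF9 were near the limit of detection. FGF19 had 4, 6 and 5 counts in AHR siRNA libraries and 5, 3 and 2 counts in control siRNA libraries. FGF9 had 2, 1 and 2 counts with AHR siRNA and 5, 4 and 2 counts with control siRNA. The groups overlapped in CPM for both genes, and 3 counts in a library correspond to 0.207 to 0.249 CPM. A difference in either was not detectable at this depth, and no fold change is given.

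FGFBP1, the carrier, was lower with AHR siRNA. It had 3.89, 4.27 and 4.63 CPM in AHR siRNA libraries and 12.4, 11.7 and 10.7 CPM in control siRNA libraries. The groups were far apart and each was narrow. The means were 4.26 ± 0.37 CPM in AHR siRNA and 11.6 ± 0.85 CPM in control siRNA libraries (SD, n = 3 each), and the fitted log2 difference was -1.44 (SE 0.14).

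Among the kinase receptors, FGFR3, FGFR2 and FGFR1 were lower with AHR siRNA and FGFR4 was not separated. FGFR3 had 18, 23 and 16 counts in AHR siRNA libraries and 42, 58 and 59 counts in control siRNA libraries, or 1.49, 1.69 and 1.18 CPM with AHR siRNA and 3.15, 4.003 and 4.54 CPM with control siRNA. Few counts lay behind it, but the groups did not overlap. Its mean was 2.68-fold lower with AHR siRNA, and the log2 fold change was -1.42 (SE 0.24). FGFR2, whose IIIb splice form is typical of epithelium, had 6.54, 8.68 and 7.86 CPM with AHR siRNA and 11.8, 12.98 and 10.8 CPM with control siRNA. Again no AHR siRNA library reached a control siRNA library, and the log2 fold change was -0.62 (SE 0.14). Counts per gene do not separate splice forms.

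FGFR1 had the most counts of the kinase receptors. It stood at 36.3, 42.2 and 47.6 CPM in AHR siRNA libraries and 48.8, 56.04 and 56.6 CPM in control siRNA libraries. The highest AHR siRNA library was just under the lowest control siRNA library. The log2 fold change was -0.35 (SE 0.09), and -0.21 when library totals alone set the scale. An antisense gene without a symbol shares 53 bases of exon with FGFR1. FGFR4, the main receptor of FGF19 together with KLB, had 4.97, 6.99 and 6.61 CPM with AHR siRNA and 5.78, 4.42 and 6.38 CPM with control siRNA. These ranges overlapped, and the log2 fold change of 0.18 (SE 0.18) ran from 0.02 without control siRNA replicate 2 to 0.30 without AHR siRNA replicate 1.

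FGFRL1, the receptor without a kinase domain, was higher with AHR siRNA. It had 193, 230.5 and 222 CPM in AHR siRNA libraries and 149, 164 and 156 CPM in control siRNA libraries. Every AHR siRNA library was above the control siRNA libraries, and the log2 fold change was 0.46 (SE 0.07).

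**Figure D2:**
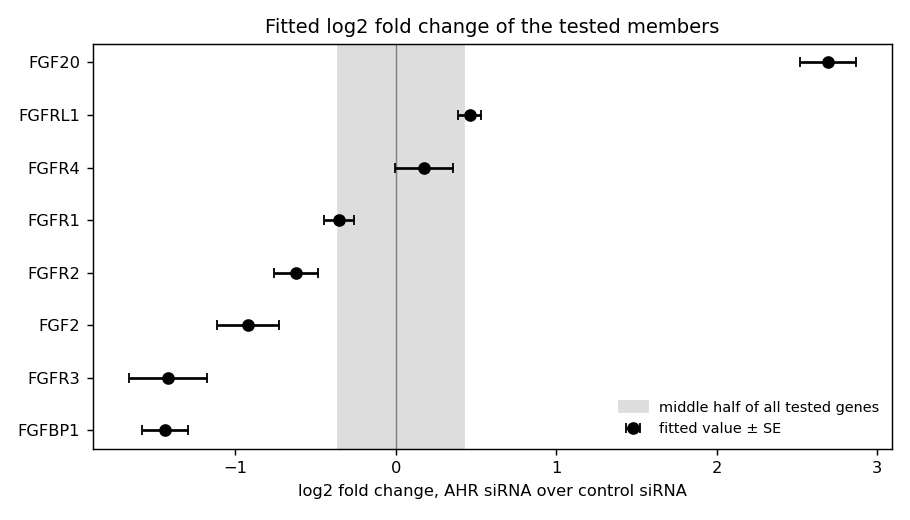
Fitted log2 fold change of the 8 fitted genes, AHR siRNA over control siRNA, with bars of 1 SE. The grey band runs from the lower to the upper quartile of all fitted genes, -0.36 to 0.43. FGF20 lies far to the right at 2.69, and FGFR3 and FGFBP1 lie furthest to the left at -1.42 and -1.44.

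Levels of different genes were compared as CPM per kilobase of exon. On this scale FGFRL1 led, at 54.7 ± 5.0 in AHR siRNA and 39.8 ± 2.0 in control siRNA libraries (SD, n = 3 each). FGF20 stood at 7.18 ± 0.19 with AHR siRNA, where it overlapped FGFR1, and at 1.11 ± 0.24 with control siRNA, where it overlapped FGF2 and FGFR3 (SD, n = 3 each). In AHR siRNA libraries the level per kilobase went on from FGFR1 at 6.45 to FGFBP1 at 3.14, FGFR4 at 1.94, FGFR2 at 1.15, FGF2 at 0.467, FGFR3 at 0.326, FGF19 at 0.155 and FGF9 at 0.0305. Of these neighbours FGF2 and FGFR3 overlapped between libraries and the others did not. In control siRNA libraries the level per kilobase was 8.54 for FGFBP1, 8.26 for FGFR1, 1.77 for FGFR2, 1.73 for FGFR4, 0.882 for FGF2 and 0.874 for FGFR3. There FGFBP1 overlapped FGFR1, FGFR2 overlapped FGFR4, and FGF2 overlapped FGFR3. FGF19 and FGF9 were lowest in both groups.

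**Figure D3:**
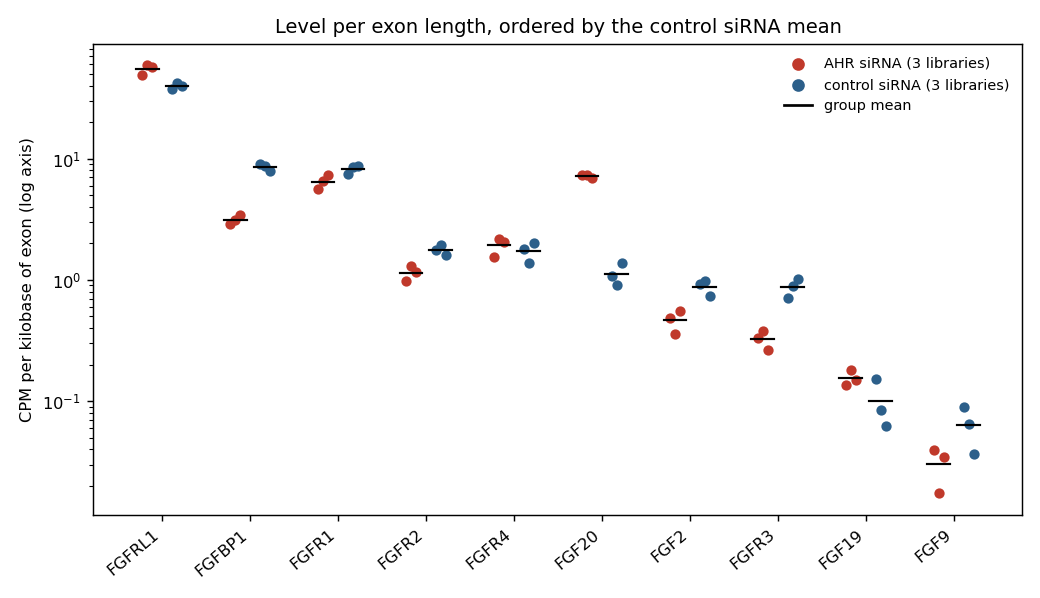
Level of the 10 genes in CPM per kilobase of exon on a log axis, with 1 point per library and a bar at each group's mean. FGF20 stands beside FGFR1 in AHR siRNA libraries, at 7.18, and beside FGF2 and FGFR3 in control siRNA libraries, at 1.11.

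The 4 kinase receptors together gave 8.43, 10.3 and 10.8 CPM per kilobase in AHR siRNA libraries and 11.8, 12.8 and 13.3 in control siRNA libraries. FGFR1 made up 65.4 ± 2.5% of this sum in AHR siRNA and 65.3 ± 1.7% in control siRNA libraries (SD, n = 3 each). FGFR4 made up 19.6 ± 1.4% with AHR siRNA and 13.7 ± 2.5% with control siRNA, and FGFR3 3.36 ± 0.81% with AHR siRNA and 6.88 ± 0.82% with control siRNA (SD, n = 3 each). FGFR1 thus led in every library. The level of FGFRL1 per kilobase was 5.82, 5.68 and 5.22 times the sum in AHR siRNA libraries and 3.21, 3.26 and 2.99 times the sum in control siRNA libraries. In bulk RNA, fewer cells with a transcript and less transcript per cell cannot be told apart.

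The profile of FGF20 over the 6 libraries was set beside those of 13318 other genes with a symbol and a mean of at least 1 CPM. Likeness was the root mean square difference of log2 CPM, each gene centred on its own mean. Genes picked in this way share the group difference of FGF20 by choice, so that difference is not a separate result. The closest genes were RSPH1, a radial spoke gene of motile cilia, at 0.139, KLHL24 at 0.162, FAM227A at 0.168, EXOC3L1 at 0.196 and the histone gene H2BC5, which has near-identical copies, at 0.208. RSPH1 was also close in CPM, at 12.9 ± 1.4 in AHR siRNA and 1.90 ± 0.49 in control siRNA libraries (SD, n = 3 each).

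**Figure D4:**
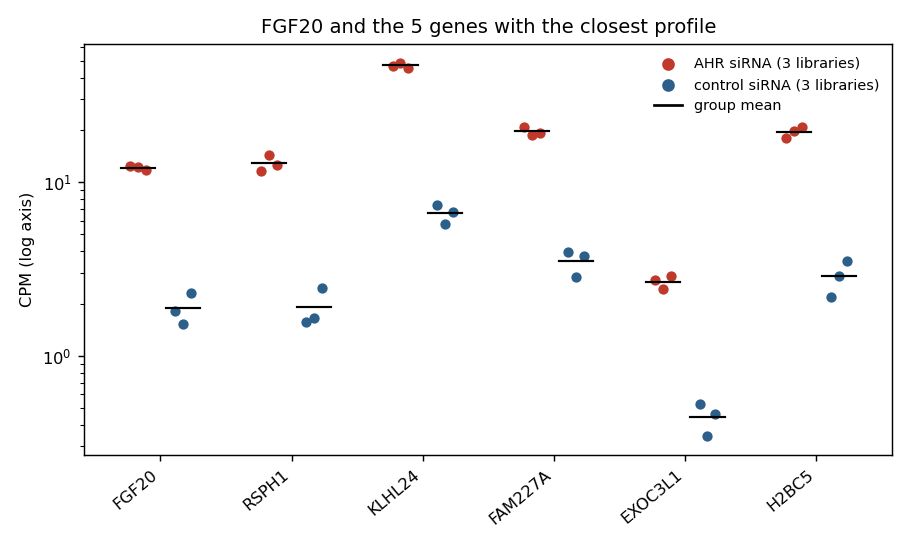
FGF20 and the 5 genes whose centred log2 CPM over the 6 libraries lies closest to it, in CPM on a log axis, with 1 point per library and a bar at each group's mean. All are higher in each AHR siRNA library than in any control siRNA library, which follows from picking them for likeness to FGF20. Their AHR siRNA means run from 2.67 CPM (EXOC3L1) to 47.2 CPM (KLHL24).

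The rest of the ligand family was nearly silent. Of 14 other secreted FGF genes, 5 had no count in any library and 1 was fitted. That gene, FGF18, had 17, 22 and 20 counts in AHR siRNA libraries and 44, 47 and 40 counts in control siRNA libraries, and fell by 1.09 on the log2 scale (SE 0.23, edgeR adjusted p = 0.000469). FGF8 had 4, 4 and 3 counts with AHR siRNA and 9, 8 and 9 with control siRNA. FGF17 had 5, 12 and 3 counts with AHR siRNA and 4, 2 and 1 with control siRNA, and FGF22 5, 13 and 7 with AHR siRNA and 2, 7 and 3 with control siRNA. These ligands were under the filter on low counts, as were FGF1, FGF3, FGF7, FGF21 and FGF23, with at most 3 counts in a library. Of the 4 intracellular FGF homologous factors, which are not secreted, FGF11 alone was fitted and was not called, at 1.18 ± 0.39 CPM in AHR siRNA and 1.17 ± 0.52 CPM in control siRNA libraries (SD, n = 3 each).

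The coreceptors were low as well. KLB had 8, 2 and 12 counts in AHR siRNA libraries and 10, 14 and 18 counts in control siRNA libraries. It was not called, at a log2 difference of -0.87 (SE 0.46, edgeR adjusted p = 0.112), but it was called without control siRNA replicate 1 (edgeR adjusted p = 0.0477) and without AHR siRNA replicate 3 (edgeR adjusted p = 0.0369). With AHR siRNA replicate 2 left out, the log2 difference of KLB was -0.40, with an edgeR adjusted p of 0.451. KL, another coreceptor gene, had 1 count in 1 AHR siRNA library and none elsewhere. FLRT3, a membrane protein that binds FGF receptors, rose to 3.44 ± 0.46 CPM with AHR siRNA, against 2.29 ± 0.24 CPM with control siRNA (SD, n = 3 each). Its adjusted p of 0.0272 from edgeR became 0.0560 without control siRNA replicate 1, 0.0932 without control siRNA replicate 3, 0.0651 when AHR siRNA replicate 1 was left out and 0.111 without AHR siRNA replicate 2. FLRT1 and the carrier gene FGFBP3 were not called, with log2 fold changes of 0.01 (SE 0.22) and 0.20 (SE 0.25).

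Heparan sulfate proteoglycans hold FGFs for their receptors. Of 13 genes 9 were fitted, 4 rose, 2 fell and 3 were not called, with a median log2 fold change of 0.14 against 0.01 over all fitted genes. Over all fitted genes 30.0% were called higher and 30.1% lower, so calls in both directions are not particular to this list. GPC2, a glypican, rose to 9.28, 9.93 and 9.47 CPM in AHR siRNA libraries, against 2.10, 2.83 and 2.31 CPM in control siRNA libraries (log2 fold change 1.98, SE 0.17, edgeR adjusted p = 8.39e-09). HSPG2, the gene of the basement membrane proteoglycan perlecan, rose to 57.4, 76.8 and 89.8 CPM with AHR siRNA, against 14.7, 23.8 and 19.9 CPM with control siRNA (log2 fold change 1.94, SE 0.15, edgeR adjusted p = 1.72e-09). The groups were far apart for both. GPC1, another glypican, fell to 45.1% of control and SDC4, a syndecan, to 48.5% (edgeR adjusted p = 1.65e-10 and 1.05e-10). SDC3 and COL18A1, named after their values were seen, also rose, by 0.48 and 1.27 on the log2 scale. AGRN and SDC1 were not called, at log2 fold changes of 0.14 (SE 0.08) and -0.15 (SE 0.07). AGRN was called higher without AHR siRNA replicate 1 (edgeR adjusted p = 0.0344), with upper-quartile factors (0.0288), with library totals alone (0.00965) and with a replicate block (0.0145), and SDC1 was called lower with the block (0.0264).

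Other genes encode the enzymes that build and edit heparan sulfate. Of 30 genes 17 were fitted, 6 rose, 5 fell and 6 were not called, with a median log2 fold change of 0.10, near the 60.1% of all fitted genes called. Without AHR siRNA replicate 2, or with library totals alone, 3 were called lower. The higher calls moved as well. B4GALT7 and NDST1 lost theirs without AHR siRNA replicate 2, and EXTL2, B3GALT6 and XYLT2 gained one with library totals alone. The sulfotransferase genes HS2ST1 and HS6ST1 rose to 158% and 153% of control, and EXTL3, a gene of chain synthesis, to 149% (edgeR adjusted p = 5.52e-07, 1.34e-06 and 3.45e-06). HPSE, the heparanase gene, whose product cuts the chains, fell to 52.05% of control (edgeR adjusted p = 3.20e-07). EXT2, of the chain polymerase, fell by 0.24 on the log2 scale (edgeR adjusted p = 0.0105), a call lost without control siRNA replicate 3 (edgeR adjusted p = 0.0545), AHR siRNA replicate 2 (edgeR adjusted p = 0.0690) or AHR siRNA replicate 3 (edgeR adjusted p = 0.0506). It was also lost with upper-quartile factors (-0.16, edgeR adjusted p = 0.0706) and when library totals alone set the scale (-0.10, adjusted p = 0.295 from edgeR). The others that fell, EXT1, HS3ST1 and HS3ST3B1, were named after their values were seen, and FAM20B was not called.

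Genes of the relay inside the cell were called at a share near that of all genes. All 21 genes were fitted, 6 rose, 8 fell and 7 were not called, with a median log2 fold change of -0.07, beside 30.0% of all fitted genes called higher and 30.1% lower. Without control siRNA replicate 1, AHR siRNA replicate 2 or AHR siRNA replicate 3, 3 were called higher, and with library totals alone 5 were called lower. PLCG1, a phospholipase that binds active FGF receptors, rose to 132 ± 2.0 CPM with AHR siRNA, against 94.3 ± 7.2 CPM with control siRNA (SD, n = 3 each), a log2 difference of 0.48 (SE 0.07, edgeR adjusted p = 7.40e-06). The ubiquitin ligase gene CBL fell to 59.6% of control, and the GTPase genes HRAS and NRAS to 61.7% and 72.5% (edgeR adjusted p = 3.03e-06, 1.86e-07 and 8.53e-06). PTPN11, a phosphatase gene of the relay, was not called, at a log2 fold change of -0.11 (SE 0.08), except without control siRNA replicate 1 (edgeR adjusted p = 0.0195).

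Next come genes that the relay induces. All 19 genes were fitted, 6 rose, 8 fell and 5 were not called, with a median log2 fold change of -0.13, beside 60.1% called over all fitted genes, 30.0% higher and 30.1% lower. DUSP6, the phosphatase gene among the brakes, fell to 110.2, 114 and 109.8 CPM in AHR siRNA libraries, against 210.2, 212 and 202 CPM in control siRNA libraries (log2 fold change -0.90, SE 0.06, edgeR adjusted p = 5.98e-10). EGR1, an immediate early gene, fell to 42.9% of control and FOSL1, a subunit of AP-1, to 53.9% (edgeR adjusted p = 1.67e-07 and 6.52e-09). IL17RD, an inhibitor of FGF signalling, rose to 152% and PHLDA1 to 119% (edgeR adjusted p = 1.56e-05 and 0.00265). The Sprouty genes, named after their values were seen, were split. SPRY3 rose by 1.09 and SPRY4 fell by 0.65 on the log2 scale (edgeR adjusted p = 4.61e-05 and 3.41e-05). SPRY2 fell by 0.22 (edgeR adjusted p = 0.0462), a call lost under most alternatives. SPRY1 was not called, except as higher with library totals alone (edgeR adjusted p = 0.0425). These genes also answer to other receptors.

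**Figure D5:**
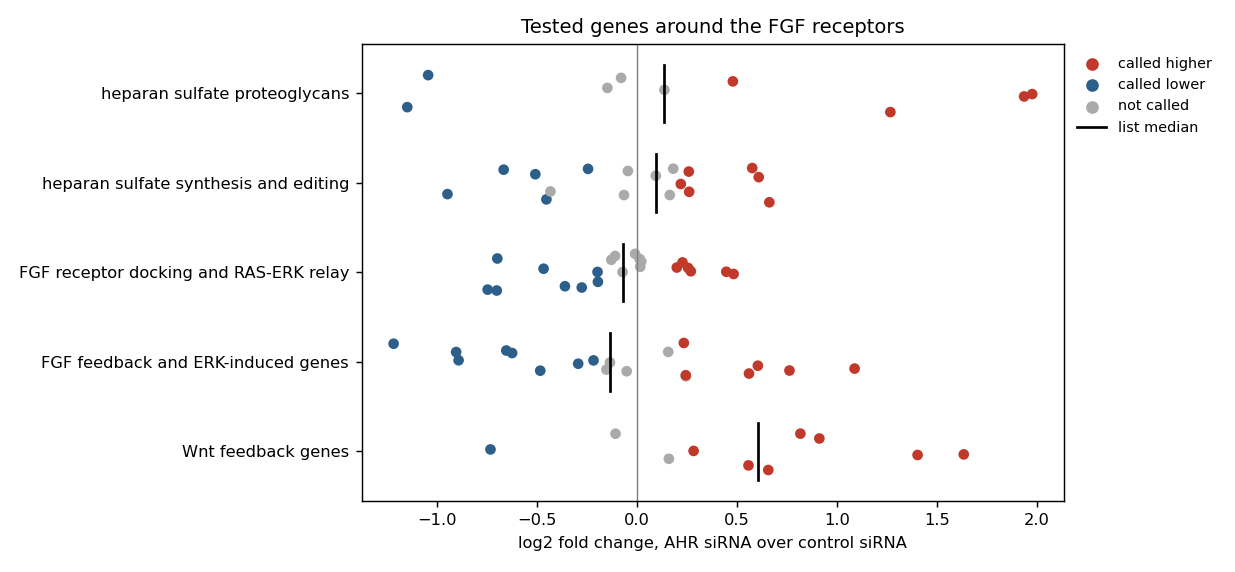
Log2 fold change, AHR siRNA over control siRNA, of every fitted gene in 5 lists around the FGF receptors, 1 point per gene. Colour shows the edgeR call over all genes and the black bar the list median, which lies between -0.13 and 0.14 for all lists but the Wnt feedback genes, at 0.61.

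FGF20 is known as a target of beta-catenin, so Wnt feedback genes are given beside it. Of 12 genes 10 were fitted, 7 rose, 1 fell and 2 were not called, with a median log2 fold change of 0.61, beside 30.0% of all fitted genes called higher and 30.1% lower. Without control siRNA replicate 1, 2 were called lower. SP5, a transcription factor gene of this feedback, rose to 22.7, 28.7 and 32.1 CPM in AHR siRNA libraries, against 10.1, 8.01 and 8.92 CPM in control siRNA libraries (edgeR adjusted p = 3.05e-09). ASCL2, LGR5, LEF1 and AXIN2 rose by 1.40, 0.91, 0.66 and 0.28 on the log2 scale. TCF7, the gene that fell, was named after its values were seen (log2 fold change -0.73, SE 0.09, edgeR adjusted p = 1.26e-06). RNF43 was not called, except as lower without control siRNA replicate 1 (edgeR adjusted p = 0.0178). The part of Wnt signalling in the level of FGF20 was not tested.

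Genes of bile acid sensing, which governs FGF19 in the ileum, were mostly silent. Of 9 genes 3 were fitted, 2 rose and 1 fell, with a median log2 fold change of 0.37. Over all fitted genes 60.1% were called, 30.0% higher and 30.1% lower, and nothing is read from so few genes. NR1H4, the gene of the bile acid receptor FXR, had 1 count in 1 control siRNA library and none elsewhere. SLC51B, a subunit gene of the bile acid exporter, had 2, 6 and 6 counts in AHR siRNA libraries and 45, 53 and 31 counts in control siRNA libraries (log2 fold change -3.11, SE 0.36, edgeR adjusted p = 4.94e-07). RXRA, the partner receptor of FXR, rose by 0.37 on the log2 scale (edgeR adjusted p = 0.000141). SLC51A, the other exporter subunit, rose by 0.55 (edgeR adjusted p = 0.0377), a call lost when control siRNA replicate 1 or 3, or AHR siRNA replicate 1 or 2, was left out, with edgeR adjusted p values from 0.0995 to 0.126. The call of SLC51A was also lost with no filter on low counts (edgeR adjusted p = 0.0595) and with DESeq2 (DESeq2 adjusted p = 0.104).

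The FGF genes lie at scattered loci, with positions from GENCODE 29 on GRCh38 and not from the count tables. FGF20 spans 16992169 to 17002181 and FGFR1 38400215 to 38468834, both on the minus strand of chromosome 8. The nearest fitted protein-coding neighbours of FGF20, ZDHHC2 at 154 kb and TUSC3 at 1230 kb, were not called, with log2 fold changes of -0.03 (SE 0.08) and 0.60 (SE 0.28). FGFR1 overlaps LETM2 without shared exon bases and lies beside NSD3 and TACC1, and these fell by 1.13, 0.47 and 0.72 on the log2 scale (edgeR adjusted p = 2.55e-05, 7.00e-05 and 6.32e-08). FGF19 lies at 69698232 to 69704642 on chromosome 11, FGF9 at 21671383 to 21704498 on chromosome 13, FGFR2 at 121478334 to 121598458 on chromosome 10 and FGFR4 at 177086886 to 177098144 on chromosome 5. Of the 20 nearest neighbours of the FGF genes, 5 were called higher, 6 lower and 9 were not called, near the 60.1% called over all fitted genes.

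FGFRL1, FGFR3, FGFBP1 and FGF2 are all on chromosome 4, at 1009936 to 1026897, 1793293 to 1808872, 15935569 to 15938740 and 122826708 to 122898236. IDUA, 5.43 kb from FGFRL1, rose by 1.17 on the log2 scale (SE 0.12, edgeR adjusted p = 7.99e-08). TACC3, 48.1 kb from FGFR3, fell by 0.86 (SE 0.07, edgeR adjusted p = 2.30e-09), while LETM1, 2.61 kb away on the other side, was not called. PROM1, 24.3 kb from FGFBP1, rose by 0.74 (SE 0.18, edgeR adjusted p = 0.00152). Beside FGF2, SPATA5 fell by 1.07 (SE 0.10, edgeR adjusted p = 2.38e-08) and BBS12 rose by 0.47 (SE 0.19, edgeR adjusted p = 0.0441).

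AHR with ARNT binds DNA at the core word GCGTG, which reads as CACGC on the other strand, so promoter windows were searched for both. The windows, from RefSeq on GRCh38.p14, are 300 bases long, from 250 before to 50 after a gene start, and 6 of the 10 FGF genes matched at least 1 that is used here. The word is in 36.5% of 35116 windows, and TNGCGTG, which contains it, in 5.51%. The windows of 4 genes are shown 5′ to 3′ because they differ in the word, with each match in capitals. FGF2 (plus strand, chr4:122826581-122826880) holds 1 match, 156 bases before the start, which is also a TNGCGTG. FGFR3 (plus strand, chr4:1793043-1793342) holds 3 matches, 183, 148 and 112 bases before the start. FGFRL1 (plus strand, chr4:1012214-1012513) and FGFBP1 (minus strand, chr4:15938691-15938990) hold none. The window of FGFRL1 lies inside the gene span given above, so the first base of that span was not searched.
FGF2: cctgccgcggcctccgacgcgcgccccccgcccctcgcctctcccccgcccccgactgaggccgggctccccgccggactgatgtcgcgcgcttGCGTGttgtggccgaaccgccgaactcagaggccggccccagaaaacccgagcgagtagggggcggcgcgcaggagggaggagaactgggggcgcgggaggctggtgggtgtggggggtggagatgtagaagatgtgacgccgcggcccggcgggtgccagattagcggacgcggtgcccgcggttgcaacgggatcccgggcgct
FGFR3: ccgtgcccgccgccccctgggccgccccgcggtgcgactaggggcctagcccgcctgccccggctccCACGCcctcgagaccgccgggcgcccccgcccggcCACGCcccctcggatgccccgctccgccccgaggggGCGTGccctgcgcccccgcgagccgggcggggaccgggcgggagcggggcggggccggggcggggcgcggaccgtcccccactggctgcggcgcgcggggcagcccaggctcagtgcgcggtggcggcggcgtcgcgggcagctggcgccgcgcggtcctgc
FGFRL1: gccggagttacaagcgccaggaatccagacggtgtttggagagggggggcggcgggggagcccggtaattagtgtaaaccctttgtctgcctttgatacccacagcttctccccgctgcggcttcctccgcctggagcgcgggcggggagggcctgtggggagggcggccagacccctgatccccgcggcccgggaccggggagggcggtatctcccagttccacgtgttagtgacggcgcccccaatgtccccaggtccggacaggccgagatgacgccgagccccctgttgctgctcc
FGFBP1: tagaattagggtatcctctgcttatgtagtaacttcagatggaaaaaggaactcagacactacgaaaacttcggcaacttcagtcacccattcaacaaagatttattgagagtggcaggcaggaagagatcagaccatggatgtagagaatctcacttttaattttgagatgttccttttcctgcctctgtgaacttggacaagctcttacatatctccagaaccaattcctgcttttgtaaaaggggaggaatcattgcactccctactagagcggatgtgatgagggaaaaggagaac

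Of the genes shown that were lower with AHR siRNA, FGF2 and FGFR3 held the word in these windows and FGFBP1 did not, and neither did FGFRL1, which was higher. G and C made up 74.7% of the window of FGF2, 86.3% for FGFR3, 68.3% for FGFRL1 and 42.0% for FGFBP1. FGFR2, also lower with AHR siRNA, held 1 match in 1 of its 5 windows. FGFR4, whose groups overlapped, held 2 matches in 1 of its 2 windows. Whether the word goes with a change in level was not tested. Windows on chromosome 8, where FGF20 and FGFR1 lie, were left out of the search and of the share above. FGF9 and FGF19 matched no window used here. The promoters of these genes were therefore not searched. Nothing is said on whether they hold the word. The share of 36.5% likewise holds for the windows used here alone. A match to the letters is a description, not a measured binding site.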

How the data were processed

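RNA from 6 DLD-1 samples was sequenced, 3 with AHR siRNA and 3 with control siRNA. The authors deposited raw counts per Ensembl gene for each sample. The submitters' processing notes name TopHat2 2.0.11, TopHat, HTSeq, hg19 and GRCh37, without saying what each was used for. No source used here states strand handling.

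Of 60483 gene IDs, 41124 had a symbol in the name table. Counts were fitted with edgeR 4.0.16 (R 4.3.3): filterByExpr, TMM factors and the quasi-likelihood test over 14900 genes, with Benjamini-Hochberg adjustment and a threshold of 0.05. The SE is the size of the log2 fold change divided by the square root of F. Exon lengths are GENCODE 29 union exons, which may differ from those counted. The fit was also run on simulated data in which few genes changed, whereas 60.1% of fitted genes were called here. That run therefore cannot check the scaling or the calls where most genes change.

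The FGF genes and the gene lists were chosen with earlier results of these data known. Named list genes are up to 4 with the smallest p and 2 with the highest mean CPM. Alternatives were other scalings and filters, DESeq2 1.42.0, limma 3.58.1 (voom), a replicate block and each library left out. Over genes, chi-square per degree of freedom was 1.54 between control siRNA replicates 2 and 3, and 8.68 and 7.55 between these and replicate 1. It was 3.31 to 5.46 among AHR siRNA replicates. Control siRNA replicate 1 thus stood apart, and each pair differed by more than count sampling alone gives. These values cannot tell separate cultures from separate preparations of the same culture. Some genes of the lists are not reported here by name.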

Additional observations from a re-analysis of the deposited data

How the results depend on the processing

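All 8 fitted FGF genes kept their direction under every alternative run, but the log2 fold change of FGFR4, 0.18 (SE 0.18), was no larger than its SE. The log2 fold change ranged from 2.55 to 2.86 for FGF20, -1.50 to -1.29 for FGFBP1, -1.56 to -1.27 for FGFR3 and 0.02 to 0.32 for FGFR4. It ranged from -1.07 to -0.76 for FGF2, -0.45 to -0.21 for FGFR1, -0.72 to -0.47 for FGFR2 and 0.41 to 0.61 for FGFRL1. The values of -1.29 for FGFBP1 and 0.61 for FGFRL1 came with library totals alone. Genes called over the whole table numbered 7298 at an adjusted p under 0.01, 8077 with DESeq2 and 8050 to 8993 when each library was left out, against 8953. The replicate block gave 9598. Same-numbered libraries had correlated deviations of 0.171, -0.0385 and 0.138, so the numbers were not taken to pair the samples, and not every library correlated best with its own number. Few counts limit FGFR3, FGF2, FGF19 and FGF9, and also FGF20 in its control siRNA libraries (24, 22 and 30 counts). Splice forms are not separated, because the counts are per gene.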
